A study of Mus musculus with 2 samples.

Results

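The 10 genes Mrc1, Lyve1, Folr2, Timd4, Cd163, F13a1, Gas6, Stab1, Pf4 and Cbr2 are known markers of tissue-resident, perivascular macrophages, and they were described as a set because of that known role. Each symbol matched 1 of the 32285 genes in the matrix, so all 10 were measured. They were examined in macrophages grown from mouse aorta and set against the mast cells and fibroblasts of the same library. Macrophages were cells with at least 0.1% of their gene transcripts from C1qa, C1qb and C1qc together and under 1.5% from the mast cell genes Cpa3 and Cma1. This rule uses none of the 10 genes and took 1872 of 30755 cells (6.09%). Mast cells had at least 2.5% from Cpa3 and Cma1 (20940 cells), and fibroblasts had at least 0.3% from Col1a1, Col1a2 and Col3a1 (3901 cells), each outside the other classes. The remaining 4042 cells were in no class. The labels describe macrophage colonies only, yet by these genes mast cells made up 68.1% of the cells and fibroblasts 12.7%.

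The labels describe 2 C57BL/6J mice, male and 12 weeks old, whose aortas were freed of perivascular fat and digested. The cells grew in methylcellulose over 14 days, a gel-like medium that keeps the offspring of a progenitor together as a colony. Macrophage colonies (colony-forming unit macrophage) were dispersed, viable cells were sorted and their RNA was sequenced in droplets. The mice carried no named allele or treatment, and the labels describe the same culture for all cells. No label ties a cell to a mouse, a colony or a sample tag, so a shared culture is known from the labels only. There is 1 library and no replicate: every interval below is a 95% interval for counting error only, and no difference has a replicate check.

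Resident macrophages of the arterial wall sit in the adventitia and around small vessels, where they clear debris and dying cells. In many tissues macrophages marked by TIMD4, LYVE1 and FOLR2 are long-lived cells that renew in place, whereas macrophages marked by CCR2 and by high MHC class II, the antigen presentation molecules, receive more cells from blood monocytes. Most of the 10 products take part in uptake. Mrc1 encodes the mannose receptor CD206, Cd163 the receptor for haemoglobin bound to haptoglobin, Lyve1 a hyaluronan receptor, Folr2 a folate receptor, and Stab1 and Timd4 receptors of phosphatidylserine on dying cells. Gas6 encodes a secreted bridge from phosphatidylserine to the receptor kinases MERTK, AXL and TYRO3. F13a1 encodes the catalytic subunit of coagulation factor XIII, Pf4 the chemokine CXCL4, and Cbr2 a carbonyl reductase.

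The macrophages had a median of 7453 UMIs per cell (unique molecular identifiers, each standing for 1 captured transcript), against 11073 in mast cells and 30586 in fibroblasts. Levels are given as CPM, UMIs per 1000000 gene UMIs summed over the cells of a class. A UMI of this library comes from a transcript's 3′ end, so CPM is not divided by gene length, though capture can differ between genes. Shares of cells with a UMI are given after each cell was thinned to 5500 UMIs, which kept 1374 macrophages, 19539 mast cells and 3763 fibroblasts. The 5 reference macrophage genes Csf1r, Adgre1, Fcgr1, Ms4a7 and Aif1, which neither the rule nor the marker set uses, were 142 to 239 times as high in macrophages as in mast cells. The 7 mast cell genes listed for the check had from 6.59% to 10.9% of their mast cell level in macrophages. Kit, for example, had 114 CPM in macrophages against 1352 in mast cells. The 6 fibroblast genes listed had from 0.122 to 0.140 times their fibroblast level in macrophages. The matrix also counts 3 sample tags named Cafum, Matrigel and Macrophages, which the labels do not assign to cells. The Macrophages tag alone was called on 1661 of the 1872 macrophages (88.7%). Cafum alone was called on 14722 of the 20940 mast cells, and Matrigel alone on 2029 of the 3901 fibroblasts. The classes thus differed in tag as well, and the part of this in the differences between classes was not tested. The labels name male mice, yet 721 macrophages had UMIs of Xist, the RNA of the inactive X chromosome of female cells, and none of 4 Y-linked genes. A further 561 macrophages had Y-linked UMIs and no Xist, 291 had both and 299 neither. The Xist UMIs therefore go against the label in part, and where they came from was not tested. Results are given below for the cells with Xist alone and with Y-linked UMIs alone. The cells with both or neither were not examined apart.

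The 10 markers ranged from 140 to 3620 CPM in macrophages, and 3 of them lay far above the rest. Mrc1 (chromosome 2, 14229392–14332057, plus strand, GRCm38) had 3620 CPM (3591–3648) and a UMI in 98.3% of thinned macrophages. Its count per thinned cell ran from 3 at the 10th percentile over a median of 16 to 50 at the 90th, with a highest value of 145. Pf4 (chromosome 5, 90772435–90773383, plus strand) had 2865 CPM (2840–2890) and was found in 98.4% of cells, with a median of 16 UMIs. F13a1 (chromosome 13, 36867178–37050244, minus strand) had 2475 CPM (2452–2498) and was found in 90.3%, with a median of 13 UMIs. Mrc1 and Pf4 were thus near universal, while F13a1 was missing from about 1 macrophage in 10.

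**Figure D1:**
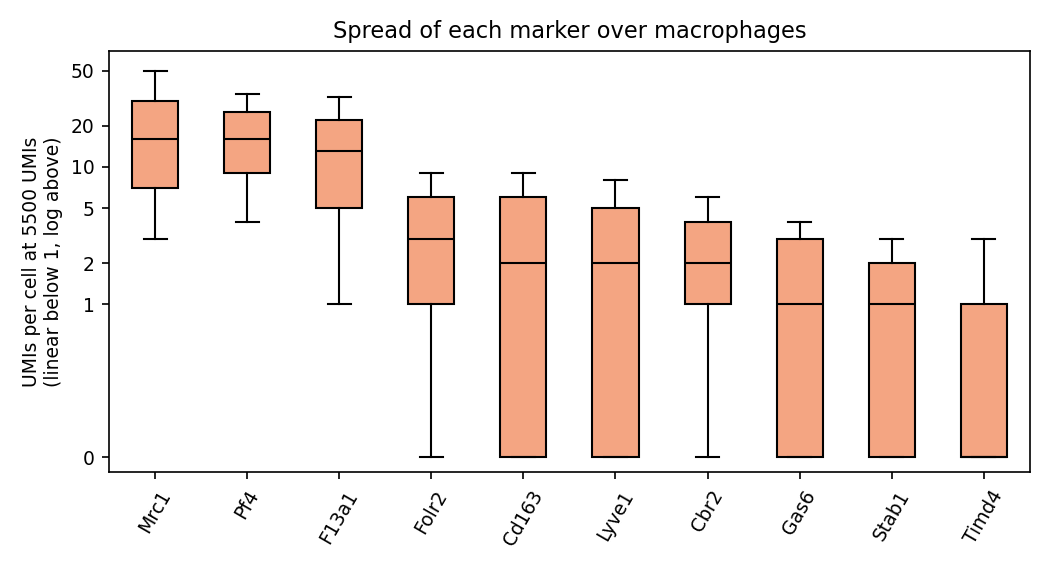
UMIs of each marker per macrophage after thinning to 5500 UMIs (1374 cells, y axis linear below 1 and logarithmic above), with boxes from the 25th to the 75th percentile, the median as a line and whiskers at the 10th and 90th percentiles. Mrc1, Pf4 and F13a1 have medians of 13 to 16 UMIs, and the median of Timd4 is 0.

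The other uptake receptors were found in parts of the population. Folr2 (chromosome 7, 101839988–101857194, minus strand) had 607 CPM (595–619) and a UMI in 77.1% (74.8–79.3) of cells. Cd163 (chromosome 6, 124304656–124330527, plus strand) had 592 CPM (581–604) and was found in 70.2% (67.7–72.6). Their levels have intervals that overlap, so the order of this pair is not resolved. Lyve1 (chromosome 7, 110850607–110863239, minus strand) had 524 CPM (513–535) and was found in 65.1% (62.5–67.6). Its count was uneven: 480 cells had no UMI, 151 had 1, and 383 had 5 or more, up to 35. Stab1 (chromosome 14, 31139013–31168641, minus strand) had 171 CPM (165–177) and was found in 54.1% (51.5–56.8). Timd4 (chromosome 11, 46810800–46844332, plus strand) had the lowest level of the set, 140 CPM (134–146), and was found in 40.4% (37.8–43.0). Only 42 cells had 5 or more Timd4 UMIs and 250 had exactly 1, so a cell without a Timd4 UMI cannot be called negative at this depth. Without thinning its share was 46.5%.

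The secreted factor Gas6 and the enzyme Cbr2 completed the set. Gas6 (chromosome 8, 13465374–13494490, minus strand) had 289 CPM (281–297) and was found in 68.3% (65.7–70.7) of macrophages. Cbr2 (chromosome 11, 120729489–120732114, minus strand) had 397 CPM (388–407) and was found in 79.6% (77.4–81.7). By level the order was Mrc1, Pf4, F13a1, Folr2, Cd163, Lyve1, Cbr2, Gas6, Stab1 and Timd4, and apart from Folr2 and Cd163 no neighbours in it had overlapping intervals. In GENCODE vM21, Folr2, F13a1, Gas6 and Stab1 overlap genes of the other strand that are also in the matrix, and none of the 10 overlaps a gene of its own strand. Whether strand was used in counting is not given in the sources used here, so a part of these 4 counts could belong to the opposite gene.

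Promoter windows were read for the members that carry the co-detection results below, since these genes were found in the same cells. RefSeq windows of 300 bases (250 before to 50 after a start, GRCm38.p6) were found for 9 of the 10 members, all but Lyve1, and made 11 windows in all. F13a1 and Folr2 had 2 windows each. Of these windows 6, from 5 of the 9 members, held GAGGAA on either strand, against 28.3% of all 32851 windows. GAGGAA holds the core letters of sites for ETS factors such as PU.1. TGCTGA on either strand, the half-site of the MAF recognition element, was in 5 of the 11 windows against 19.5% of all windows. Those 5 windows came from 4 of the 9 members. Both sets of letters are shown in capitals, in either orientation, and the motifs do not overlap each other. A match is a description of letters and not evidence of binding. The windows of Folr2 (chr7:101857141-101857440, minus strand), Timd4 (chr11:46810549-46810848, plus strand), Cbr2 (chr11:120731972-120732271, minus strand) and Mrc1 (chr2:14229164-14229463, plus strand) read, 5′ to 3′:
Folr2: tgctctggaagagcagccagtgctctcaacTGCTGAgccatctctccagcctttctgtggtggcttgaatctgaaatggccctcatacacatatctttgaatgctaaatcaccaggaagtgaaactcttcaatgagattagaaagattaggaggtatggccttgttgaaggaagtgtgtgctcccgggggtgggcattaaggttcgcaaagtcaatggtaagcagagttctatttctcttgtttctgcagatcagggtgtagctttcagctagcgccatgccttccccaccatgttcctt
Timd4: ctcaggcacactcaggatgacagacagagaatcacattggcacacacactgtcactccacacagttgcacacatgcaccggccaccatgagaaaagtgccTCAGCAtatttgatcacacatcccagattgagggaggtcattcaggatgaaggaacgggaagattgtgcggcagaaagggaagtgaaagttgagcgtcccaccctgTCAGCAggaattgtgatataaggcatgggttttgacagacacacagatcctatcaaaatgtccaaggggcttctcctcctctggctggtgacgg
Cbr2: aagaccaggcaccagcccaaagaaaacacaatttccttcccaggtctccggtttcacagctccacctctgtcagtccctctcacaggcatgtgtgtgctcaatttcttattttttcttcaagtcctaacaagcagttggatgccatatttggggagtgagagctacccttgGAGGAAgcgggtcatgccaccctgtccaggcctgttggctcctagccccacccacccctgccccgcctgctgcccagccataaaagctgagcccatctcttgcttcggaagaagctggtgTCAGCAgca
Mrc1: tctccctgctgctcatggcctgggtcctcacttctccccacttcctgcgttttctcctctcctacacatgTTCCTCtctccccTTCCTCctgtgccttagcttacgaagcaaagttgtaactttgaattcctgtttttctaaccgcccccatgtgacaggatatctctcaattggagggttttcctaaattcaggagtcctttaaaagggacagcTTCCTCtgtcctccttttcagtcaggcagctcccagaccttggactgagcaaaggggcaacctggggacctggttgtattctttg
The Timd4 window had 2 matches to the MAF half-site and the printed Folr2 window had 1, as had the other Folr2 window (chr7:101845282-101845581), whereas Mrc1 had 3 matches to GAGGAA and none to the half-site. Cbr2 had 1 match to each, and Cd163 and Gas6 had no match to either.

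The set was compared with the other cell classes to see how far each member set macrophages apart. All 10 members were at least 4 times as high in macrophages as in mast cells, a fold that 15.5% of the 9118 genes with at least 10 CPM in either class reached. The ratios ran from 109 for Gas6 to 356 for Lyve1, with a median of 231, against a median of 0.911 over all genes tested. For the 5 reference macrophage genes the ratios were 142 to 239. Levels in mast cells were low: Lyve1 had 1.47 CPM (1.33–1.62) and Timd4 0.588 CPM (0.501–0.686), while Pf4 had the highest value, 25.3 CPM (24.7–25.9). As a share of the macrophage level, Gas6 in mast cells stood at 0.917%, Pf4 at 0.883% and Stab1 at 0.771%, above the 0.418% to 0.705% of the 5 reference genes. Pf4 was found in 13.7% of mast cells and Lyve1 in 0.901%.

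The call at 4 times against fibroblasts differed from that against mast cells for 1 member. Against fibroblasts, 9 of 10 members were at least 4 times as high in macrophages, a fold reached by 9.26% of the 9435 genes compared. Those 9 had ratios from 92.2 for Stab1 to 292 for Mrc1. Gas6 was the exception, with 94.5 CPM (92.8–96.2) in fibroblasts, a UMI in 27.7% of them and a ratio of 3.06. Gas6 in fibroblasts was thus at 32.7% of its macrophage level, whereas the reference genes ranged from 0.483% for Aif1 to 1.34% for Csf1r. Lyve1 stood at 0.945% and Stab1 at 1.09%, within the range of the reference genes. Markers of lymphatic endothelium, another cell type known for LYVE1, were near 0 in macrophages, with Prox1 at 3.21 CPM and Flt4 at 0.860 CPM, apart from Pdpn (28.8 CPM, against 160 in fibroblasts), the 1 of 4 listed genes above 10 CPM. Platelet and megakaryocyte genes, a known setting of PF4 and factor XIII, were also low, with Ppbp at 1.89 CPM and Gp9 at 0.115 CPM, and Itga2b (21.1 CPM, against 141 in mast cells) was the 1 of 6 above 10 CPM. None of the 6 endothelial genes reached 10 CPM.

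**Figure D2:**
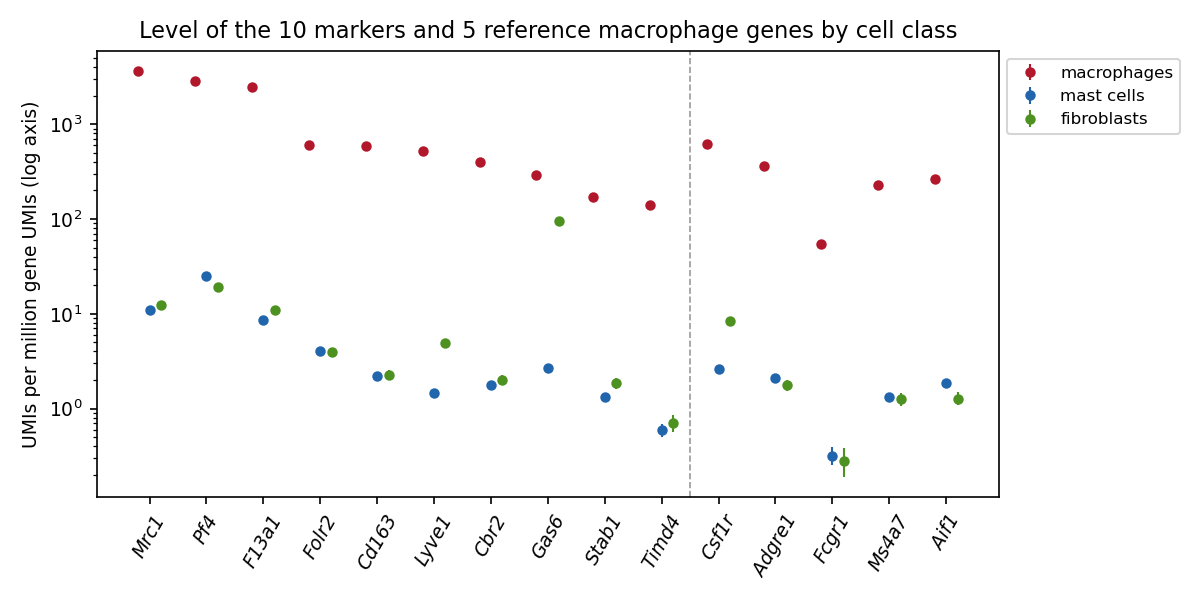
Level of each marker and of 5 reference macrophage genes (right of the dashed line) in macrophages (1872 cells), mast cells (20940) and fibroblasts (3901), in CPM on a log axis with exact Poisson 95% intervals. Gas6 is the marker with a fibroblast level of 94.5, and the other markers and the reference genes lie at 19.1 or less there.

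The question of whether the markers lie in the same cells was first asked by counting them per cell. A thinned macrophage had UMIs of a median of 8 of the 10 markers, with 4 at the 10th percentile and 10 at the 90th. All 10 were found in 227 cells (16.5%, 14.6–18.6), against 50.3 cells that the separate shares of the 10 genes would give if detection were unrelated. At most 3 were found in 107 cells (7.79%), whereas the shares would give 1.80 cells with exactly 3 and 0.103 with exactly 2. The variance of the number per cell was 4.95, or 3.10 times the 1.60 that the shares give. Both ends of the distribution were therefore fuller than independent detection would make them. Mast cells and fibroblasts had a median of 0 markers. Only 14 of 19539 mast cells and 18 of 3763 fibroblasts had 5 or more, against 1189 of 1374 macrophages.

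**Figure D3:**
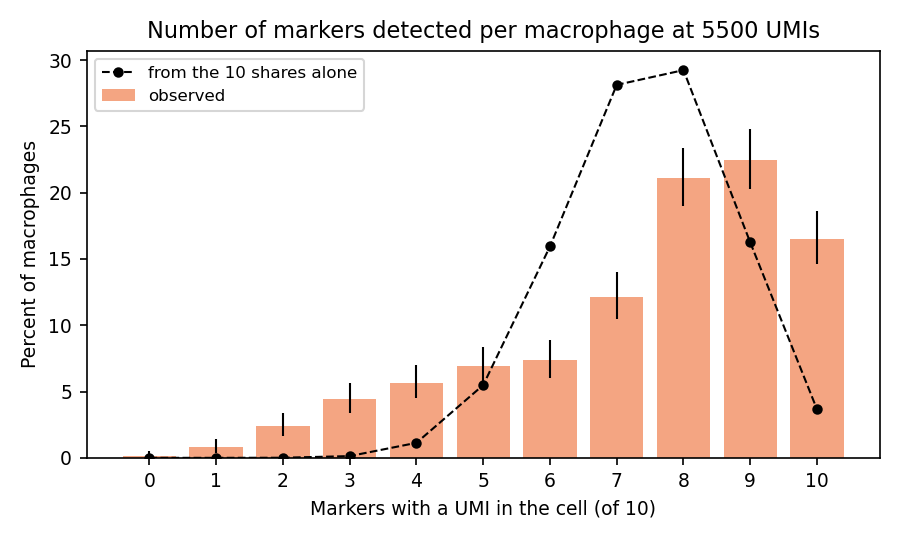
Percent of thinned macrophages (1374 cells) by number of markers with a UMI, with exact binomial 95% intervals, and the percent that the 10 shares alone give (dashed line). The observed cells lie above the dashed line at 9 and 10 markers and at 5 or fewer, and below it from 6 to 8.

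Cells with few and many markers differed in other ways that are given beside the count. The median share of C1q transcripts was 0.596% in the 107 cells with at most 3 markers, 0.705% in the 441 cells with 4 to 7 and 0.819% in the 826 cells with 8 or more. Summed CPM of the 6 fibroblast genes was 398, 376 and 93.8 in these groups, and that of the 7 mast cell genes 1641, 1804 and 1311. The Macrophages tag alone was called on 78.5%, 81.9% and 92.1% of them. Median depth before thinning was 8939, 9017 and 8578 UMIs. Their part in the spread of the markers was not tested. With macrophages limited to under 0.05% collagen transcripts, under 0.5% Cpa3 and Cma1, or the Macrophages tag alone, the median remained at 8 markers.

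Pairs of markers were then compared by the odds ratio of detection, the product of cells with both and with neither over the product of cells with only the first and only the second, with 0.5 added to each. Mrc1, Pf4 and F13a1, found in over 90% of cells, were left out of the pairs and are described by level. All 21 pairs of the other 7 markers had an odds ratio above 1, and 18 reached 2, with a median of 3.87. As background, the share of other genes with an odds ratio of 2 or more was 4.19% with Lyve1, 5.28% with Folr2 and 1.36% with Timd4, over 7589 genes found in 5% to 95% of macrophages. It was 1.78% with Cd163, 2.54% with Gas6, 2.93% with Cbr2 and 0.237% with Stab1. A list of 6 general macrophage genes, the 5 reference genes among them, was set beside this. Of the 6, 2 reached an odds ratio of 2 with Lyve1, Folr2 and Gas6, 3 with Cbr2, and 1 with Timd4, Cd163 and Stab1. The median of the list ran from 0.998 with Lyve1 to 1.83 with Cbr2. Some general macrophage genes were thus also co-detected with the markers.

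Lyve1 and Folr2 were the most closely associated pair, with an odds ratio of 19.8. Folr2 was found in 843 of 894 cells with Lyve1 (94.3%, 92.6–95.7) and in 45.2% (40.7–49.8) of 480 cells without. Folr2 and Timd4 followed at 9.94: Timd4 was found in 49.7% of cells with Folr2 and in 8.92% of cells without. Timd4 was rare outside the Lyve1 cells as well, at 14.8% against 54.1% within them (odds ratio 6.76). Gas6 had odds ratios of 8.21 with Folr2 and 6.93 with Lyve1, and Cbr2 of 7.27 with Folr2. Cd163 was associated more evenly, between 3.07 with Gas6 and 5.94 with Folr2, apart from 1.80 with Stab1. The 3 pairs under 2 all included Stab1, which reached at most 2.29, with Cbr2. Stab1 thus had the lowest odds ratios with the others, and its value with Lyve1 (2.06) was under 2 in 7 of the alternative settings. Set against all genes tested with the same member, Stab1 did not stand apart. The median over the other members tested lay at percentile 99.75 for Stab1, between 99.68 for Timd4 and 99.89 for Cd163. Set against the 6 general macrophage genes it was less distinct. The median odds ratio of Stab1 was 2.06 with the other members tested and 1.53 with those genes. For Lyve1 these medians were 6.76 and 0.998. Mast cell genes were found about equally with and without Lyve1, with odds ratios from 0.87 to 1.09 for 7 of 7, and the 3 fibroblast genes that could be tested had 0.59 to 0.86.

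**Figure D4:**
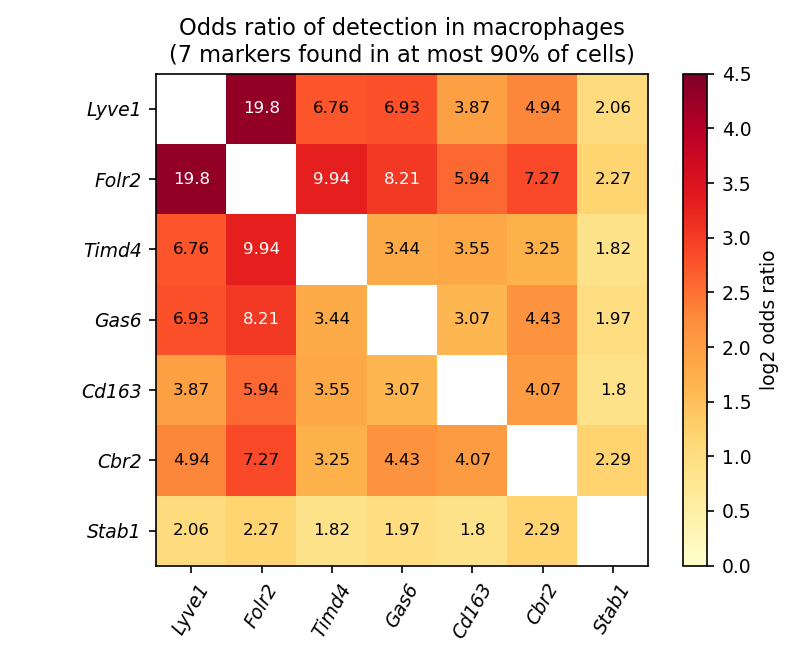
Odds ratio of detection for each pair of 7 markers over 1374 thinned macrophages, colour on a log2 scale. Lyve1 with Folr2 has the highest value (19.8) and the row of Stab1 the lowest (1.8 to 2.29).

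The 3 abundant members followed the same cells by level. Cells above the median Mrc1 count held Lyve1 in 85.9% and the others in 45.9% (odds ratio 7.15), and Timd4 in 52.5% against 29.2%. An odds ratio of 2 or more was found for 7 of 8 members tested with Mrc1, where 3.47% of all genes reached it. It was 7 of 7 with F13a1 (3.61%) and 6 of 8 with Pf4 (0.685%). A split at the median of F13a1 gave 91.6% against 40.7% for Lyve1 and 97.7% against 58.3% for Folr2 (odds ratio 29.7). The F13a1 mean was 3.44 times as high in cells with Lyve1 as in cells without, whereas for Pf4 the same ratio was 1.56 and for Mrc1 2.47. Of the 3, Pf4 had the lowest median over the members tested (2.96), with odds ratios from 1.85 for Stab1 to 5.29 for Cbr2. The genes closest to Pf4 across macrophages were C1qa, C1qc and C1qb, with Pearson r of 0.49, 0.49 and 0.44 (1374 cells of 1 library, a description only). These are the genes that chose the macrophages. Pf4 had 782 CPM in macrophages with 0.1% to 0.3% C1q transcripts and 3313 CPM in those above. The part of the rule, and of mixed cells near its threshold, in these r was not tested.

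Lyve1, Folr2 and Timd4 together divide resident from recruited macrophages in many tissues, and the 8 combinations of their detection were described next. UMIs of all 3 were found in 471 cells (34.3%, 31.8–36.9), against 279 from the separate shares. None of the 3 was found in 248 cells (18.1%, 16.0–20.2), against 65.4 from the shares. Lyve1 with Folr2 and no Timd4 was found in 372 cells (27.1%) and Folr2 alone in 161 (11.7%). Lyve1 with no Folr2 was uncommon, in 51 cells over both states of Timd4, of which 38 lacked Timd4. Cd163 was found in 85.1% (81.6–88.2) of triple-positive and 32.3% (26.5–38.5) of triple-negative cells, and Gas6 in 86.8% and 25.8%. Csf1r, the receptor of macrophage growth factor, was found in 98.1% and 88.3%, and Adgre1 in 83.2% (79.5–86.5) and 79.4% (73.9–84.3), with overlapping intervals. Most cells without the 3 markers thus carried these general macrophage genes.

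Ccr2, which marks macrophages derived from monocytes, went the other way. It was found in 8.92% (6.50–11.9) of triple-positive cells, 21.0% (16.9–25.5) of cells with Lyve1 and Folr2 alone and 43.5% (37.3–50.0) of triple-negative cells. Its level was 42.1, 124 and 283 CPM in these groups. In the few cells with Lyve1 and no Folr2 the share was near that of triple-negative cells, at 39.5% (24.0–56.6) of 38 cells without Timd4 and 38.5% (13.9–68.4) of 13 with it. The blood monocyte gene Ly6c2 had 4.36 CPM in macrophages. The odds ratio of Ccr2 with Lyve1 was 0.32, and 2.53% of other genes had one of 0.5 or less with Lyve1.

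MHC class II genes were lower in macrophages with Lyve1. H2-Aa and H2-Ab1 encode chains of the class II molecule, and Cd74 its invariant chain. All 7 class II genes of the list had an odds ratio of 0.5 or less with Lyve1, from 0.10 to 0.35. They were high in the whole class, with Cd74 at 6792 CPM and H2-Aa at 3398 CPM. H2-Aa had a mean of 14.6 UMIs per thinned cell with Lyve1 and 32.0 without, so the level of cells with Lyve1 was lower but not near 0. By combination, H2-Aa had 2269 CPM in triple-positive, 3044 in Lyve1 and Folr2, 5651 in Folr2 alone and 6105 CPM in triple-negative cells. All 7 genes were also at 0.5 or less with Folr2 and F13a1 (background 3.1% and 2.81%), 5 with Mrc1 (2.66%) and Timd4 (1.3%), 4 with Gas6 (1.42%) and 3 with Cbr2 (2.31%). Stab1 had 1 of 7 (0.29%), and Cd163 and Pf4 had none (0.764% and 1.42%).

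**Figure D5:**
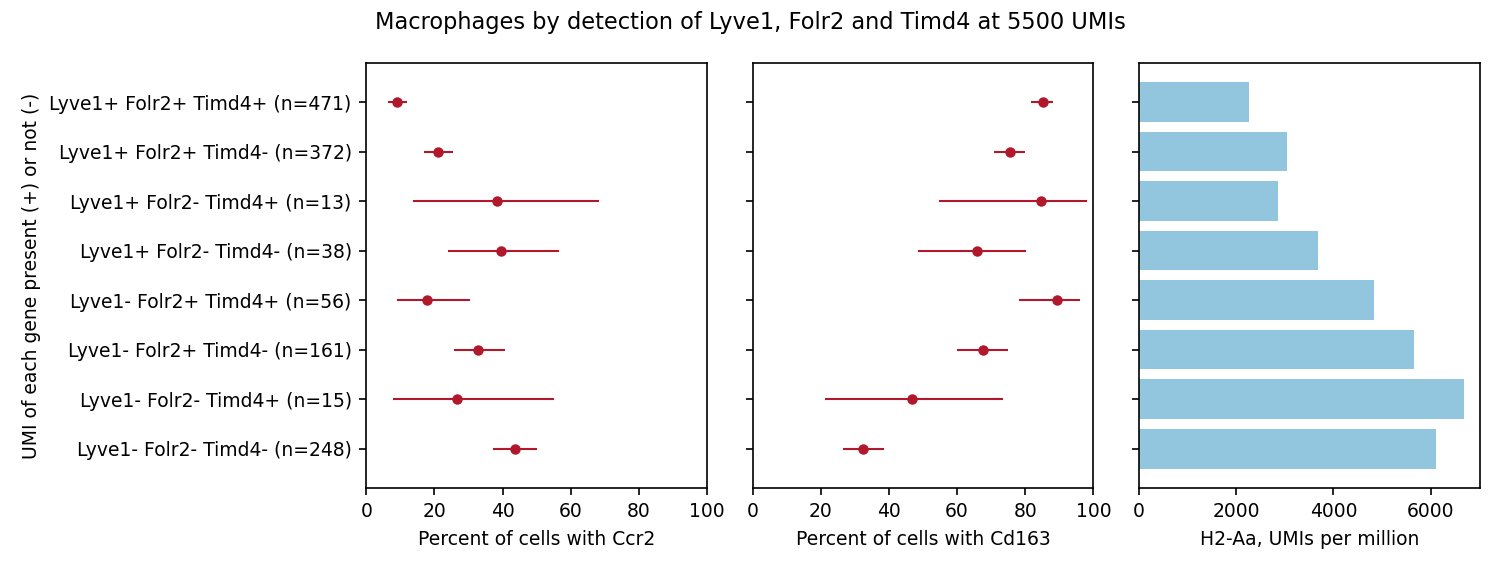
Macrophages grouped by detection of Lyve1, Folr2 and Timd4 at 5500 UMIs, with the percent of cells that had Ccr2 and Cd163 (points with exact binomial 95% intervals) and the level of H2-Aa in CPM (bars). From triple-positive to triple-negative cells Ccr2 goes from 8.92% to 43.5% and H2-Aa from 2269 to 6105.

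Other genes known from resident macrophages were read from a list of 25. Of these 23 had at least 10 CPM in macrophages, and 21 could be tested for co-detection. The share of all genes tested that reached an odds ratio of 2 is given in brackets. It was reached by 18 of 21 with Lyve1 (4.19%), 20 with Folr2 (5.28%), 15 with Timd4 (1.36%) and 17 with Cd163 (1.78%). With Gas6 19 reached it (2.54%), with Cbr2 18 (2.93%) and with Stab1 1 (0.237%). With the split at the median the count was 18 for Mrc1 (3.47%), 19 for F13a1 (3.61%) and 10 for Pf4 (0.685%). The list's median odds ratio was 5.07 with Lyve1, where the median over all genes tested was 1.03. The most abundant genes of the list were Selenop, which encodes a secreted selenium carrier (2957 CPM), Dab2, an endocytic adaptor (1263 CPM), the scavenger receptor gene Cd36 (1192 CPM) and the transcription factor gene Maf (812 CPM). Across macrophages the members were often closest to each other, with r of 0.71 between Folr2 and F13a1, 0.65 between Lyve1 and F13a1 and 0.63 between Lyve1 and Folr2. Outside the 10 members, the genes closest to Lyve1 were Ednrb, an endothelin receptor gene (r = 0.64), Fcna, which encodes a ficolin (r = 0.55), and Ltc4s, the leukotriene C4 synthase gene (r = 0.55). Ednrb was found in 84.5% of cells with Lyve1 and 18.8% of cells without. Folr2 and F13a1 had the same 3 closest genes outside the set, Selenop, Ednrb and the chemokine gene Ccl24, with r from 0.56 to 0.64. For Cd163, Gas6 and Cbr2 the closest gene outside the set was Selenop (r = 0.47, 0.51 and 0.42). Outside the set, the gene closest to Mrc1 was Ednrb (0.55), to Timd4 Ltc4s (0.39) and to Stab1 Maf (0.29).

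The receptors of Gas6 differed in how they went with the markers. Mertk had 211 CPM (204–218) in macrophages and Axl 58.7 CPM (55.2–62.4), while Tyro3 was found at 0.401 CPM. Mertk was found in 54.7% of cells with Lyve1 and 45.2% of cells without, an odds ratio of 1.46. Axl was found in 9.40% of cells with Lyve1 and 41.9% of cells without, an odds ratio of 0.14. Pros1, which encodes protein S, the other ligand of these receptors, was found in 63.5% and 38.3%. Axl in fibroblasts stood at 125 CPM, above its macrophage level, and the integrin gene Itgb5, also listed for uptake of dying cells, was found in 12.3% and 33.1%. Of the 3 fibroblast genes tested, the shares with and without Lyve1 were 20.1% and 22.7% for Dcn, 11.3% and 17.7% for Col6a1 and 5.48% and 8.33% for Col5a1. Their part in the values of Axl and Itgb5 was not tested. Of the 10 genes of the uptake list, 6 could be tested with Lyve1. Of these, 1 had an odds ratio of 2 or more (4.19% of all genes) and 2 of 0.5 or less (2.53%). Haem oxygenase (Hmox1, 570 CPM), which acts after haemoglobin uptake by CD163, was found in 79.0% of cells with and 64.8% of cells without Lyve1. Mrc2, another gene of the mannose receptor family, had 17.9 CPM in macrophages and 101 CPM in fibroblasts, the reverse of Mrc1. Folr1 had 0.344 CPM and F13b, the carrier subunit of factor XIII, 0.115 CPM in macrophages, or 6 and 2 UMIs in all.

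The values were compared between the cells with Xist and without Y-linked UMIs and the cells with the reverse. Lyve1 had 568 CPM in the first and 579 CPM in the second, Mrc1 3952 and 3909, and Timd4 142 and 150. The largest relative gap of the 10 was in Cbr2, at 404 and 454 CPM. Lyve1 with Folr2 had an odds ratio of 18.3 in 544 thinned cells of the first kind and 21.0 in 450 of the second. Of the 21 pairs, 19 and 15 reached 2, with medians of 3.88 and 3.70. The share of all genes that reach 2 was measured over all thinned macrophages only, so these counts have no background of their own. Ccr2 was found in 16.5% (12.9–20.8) of cells with Lyve1 and 37.0% (30.0–44.5) of cells without in the first kind, and in 14.3% (10.5–18.8) and 31.4% (24.2–39.3) in the second. Axl gave 9.37% and 43.6% in the first and 10.5% and 38.5% in the second. Co-detection of the markers, and the lower share of Ccr2 and Axl in cells with Lyve1, were therefore measured within both kinds of cell, which are not replicates.

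Levels differed between macrophages with more and with less of the transcripts used to choose them. In the 145 cells with 0.1% to 0.3% C1q transcripts Mrc1 had 1221 CPM and Timd4 38.5 CPM, against 4136 and 162 CPM in the 1727 cells above. Of the 40 cells just inside the threshold (0.1% to 0.15%), 20 had collagen transcripts at the level of fibroblasts. Just outside it (0.05% to 0.1%) 56 of 93 cells did. Mrc1 had 594 CPM inside and 384 CPM outside, and Gas6, which fibroblasts hold, 103 and 122 CPM. In the 171 macrophages with 0.5% to 1.5% Cpa3 and Cma1, Mrc1 had 2196 CPM against 3823 CPM in the others.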

How the data were processed

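Single-cell RNA of 1 droplet library was analysed, and the separate tag library was not used here. Per the file headers, Cell Ranger 7.0.0 made the raw UMI counts of each gene and barcode that the authors deposited, with build mm10 named in the submitters' processing notes. Counting of introns, strand and the annotation are not given in the sources used here. The matrix held 34813 barcodes (501 to 243243 gene UMIs, median 13116), 32285 genes and 3 tags, which were kept out of gene totals. Barcodes under 500 genes or 1000 UMIs, or above 10% mitochondrial UMIs, were dropped, which left 33964. Scrublet (scanpy 1.11.5, expected rate 27.9%, threshold 0.564) called 3245 barcodes as doublets (9.32%), of which 3209 had passed and were removed. Doublets below the threshold remain.

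The Macrophages and Matrigel tags were called at 2 times their median and the Cafum tag at 1.4 times its median in cells with 4 times the median of another tag. CPM carry exact Poisson intervals and shares Clopper-Pearson intervals. No p-value was computed, since cells of a single library are not replicates. Ratios use a floor of 3 counts where a class has fewer. Odds ratios and thinning were tested on simulated data. Correlations are Pearson's, on the natural log of 1 plus UMIs per 10000, over genes in at least 5% of thinned macrophages. The text names all 10 members, the 3 other genes closest to each member, and the most abundant or defining genes of each list. Members, cell rules and gene lists were chosen with earlier results of these data known. A few listed genes are not reported here.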

Additional observations from a re-analysis of the deposited data

How the results depend on the processing

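In each setting run, all 10 members stayed at least 4 times as high in macrophages as in mast cells, and 9 stayed so against fibroblasts, or 10 at a threshold of 2 times, which Gas6 then passed. The Gas6 ratio to fibroblasts ran from 2.70 to 3.41. The summed level of the members, 11679 CPM, moved with the make-up of the class: 9760 with called doublets kept, 10468 with at most 5% mitochondrial UMIs, 11732 without barcode filters, 13390 with at least 0.3% C1q, 12306 with Cpa3 and Cma1 under 0.5%, 12935 with collagen genes under 0.05% and 13222 with the Macrophages tag alone. It was 13495 with macrophages defined by Csf1r, Adgre1 and Fcgr1 in place of C1q, a setting chosen after seeing the data. The median number of markers was 7 at 3000 UMIs per cell and 7 when 2 UMIs were required, and 8 in the other settings. From 15 to 21 of 21 pairs were called, and no pair turned below 1 (lowest 1.37). Lyve1 with Folr2 ran from 8.51 to 29.0. Calls were lost in pairs with Stab1 only: Lyve1 in 7 settings, Cbr2 in 2 and Folr2 in 1. No paired analysis was possible because there is 1 library. Depth limits the detection of Timd4, Stab1 and Gas6, whose median counts at 5500 UMIs were 0, 1 and 1. Without thinning their shares were 46.5%, 61.2% and 76.9%.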

Other observations

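Cd52, which encodes a small surface glycoprotein of leukocytes, was the gene with the lowest correlation with 7 of the 10 members across macrophages, a feature singled out after its values were seen. Its r was -0.58 with Lyve1, -0.58 with Folr2 and -0.62 with F13a1, over 1374 cells and 7740 genes. For Stab1 the lowest gene was Ccr2 (-0.22), for Pf4 Tmsb10 (-0.39) and for Timd4 H2-Eb1 (-0.33).

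Cd209a, listed as a dendritic cell marker, had an odds ratio of 2 or more with 8 of the 10 members, but of 1.10 with Stab1 and 1.49 with Pf4. Of all genes tested, from 1.36% (Timd4) to 5.28% (Folr2) reached 2 with those 8 members. Cd209a was detected in 39.4% of macrophages with Lyve1 and 11.7% of those without, an odds ratio of 4.88. The other 5 genes of the list were lower in macrophages than Cd209a (150 CPM), from 0.287 CPM for Xcr1 over 0.860 for Flt3, 0.917 for Clec9a and 3.90 for Ccr7 to 9.57 CPM for Zbtb46. Other genes of the Cd209 family, Cd209f, Cd209g and Cd209d, had odds ratios of 7.79, 9.35 and 6.11 with Lyve1. Reads of these similar genes may be split by the counting, so the level of each is uncertain.

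None of the 7 genes listed for lipid-associated macrophages reached an odds ratio of 2 with any of the 10 markers. Of all genes tested, 0.237% to 5.28% reached it, so this count is near the background. At 0.5 or less were 2 of 7 with Mrc1 (2.66% of all genes), Folr2 (3.1%), F13a1 (2.81%), Pf4 (1.42%) and Cbr2 (2.31%). It was 1 of 7 with Lyve1 (2.53%), Timd4 (1.3%), Cd163 (0.764%) and Stab1 (0.29%), and none with Gas6 (1.42%). The 7 genes had a median ratio of macrophages to fibroblasts of 0.448. Of them 1 was at least 4 times as high in macrophages, a fold that 9.26% of all genes compared reached. Spp1, for example, had 688 CPM in macrophages and 4951 CPM in fibroblasts, while Trem2 had 49.3 and 3.11 CPM. The part of RNA from other cells in their detection was not tested. All 7 had odds ratios with Lyve1 from 0.44 for Cd9 to 1.00 for Fabp5. Mki67, a gene of dividing cells, was found in 11.3% of cells with Lyve1 and 14.0% of cells without, and in 7.43% (5.23–10.2) of triple-positive against 15.7% (11.4–20.9) of triple-negative cells.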
